A study of Mus musculus with 12 samples.

Results

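Gene expression in mouse kidneys injured by ischaemia and reperfusion (IRI) under an isotype control antibody was compared with that in kidneys of sham-operated mice, over every gene of the deposited count table. The comparison uses 6 of the 12 kidneys of the study, chosen by their titles: the 3 sham kidneys (1 to 3) and the 3 isotype IRI kidneys (4 to 6). All mice were male and C57BL/6. Sham kidneys were taken 24 h after a sham operation from mice that received no antibody. Isotype IRI kidneys were taken 24 h after unilateral warm IRI from mice given an isotype control monoclonal antibody 24 h before the injury. The injury and the antibody injection therefore cannot be told apart in this comparison. The labels give no age and do not say which kidney of an injured mouse was taken. RNA came from whole saline-perfused kidneys with all their cells, so fewer cells of a type and less RNA per cell cannot be told apart. The table holds 13124 genes, of which 13074 carry a symbol here, and all were tested.

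The kidney tubule reabsorbs most of what the glomerulus filters. Its proximal segment burns fatty acids in mitochondria and peroxisomes, makes glucose, degrades amino acids and secretes drugs and organic acids, which leaves it exposed when blood flow stops. Surviving tubule cells after ischaemia are known to lose their brush border and transporters, to switch on injury genes such as Havcr1 and Lcn2, and to spread and divide to cover the denuded tubule. Stress of this kind is sensed by several known routes: AP-1 and NF-kappaB factors, p53, the integrated stress response through Atf4, and the antioxidant factor NRF2.

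The 6 libraries held 14128508 to 16324215 counts each. Levels are in CPM, read counts scaled to a common library size with TMM factors. The labels number the kidneys but do not say more on how they were prepared, so p-values measure the spread between samples. That spread was estimated from all 12 kidneys of the study, the groups not compared here included. Kidney 4 stood apart within its group. Over all genes it differed from kidneys 5 and 6 by a root mean square of 0.492 and 0.515 on the log2 CPM scale, while kidneys 5 and 6 differed by 0.244 and pairs of sham kidneys by 0.272 to 0.300. Sham and isotype kidneys differed by 1.07 to 1.27. Markers of whole kidney were present: those of proximal tubule, thick ascending limb, distal convoluted tubule, collecting duct, podocyte and endothelium had entries. The 6 proximal tubule markers summed to 31112 to 35609 CPM in sham kidneys and to 16525, 11439 and 10300 CPM in kidneys 4 to 6, and all 6 fell. The 6 markers of T and NK cells, the 4 of skeletal muscle and the 4 of the male reproductive tract had none. Of 10 neutrophil markers 5 had an entry, and all 5 rose. Their summed level was 7.26 to 9.52 CPM in sham kidneys and 82.5, 33.1 and 98.0 CPM in kidneys 4 to 6. The table was filtered on low counts before deposit. Markers low in sham kidneys could enter it through the injured kidneys alone, so the count of rises among them is partly fixed. Kidney 4 also differed from kidneys 5 and 6 in markers of other tissues. The 3 measured adipocyte markers summed to 21.1 CPM in it and to 6.70 and 7.26 CPM in the others, against 8.18 to 17.1 CPM in sham kidneys. The 1 measured adrenal cortex marker, Star, stood at 6.78, 2.21 and 2.55 CPM against 0.479 to 0.938 CPM in sham, and the 4 erythroid markers at 7.11, 26.8 and 43.9 CPM against 19.6 to 62.7 CPM. The part of these cells in the results below was not tested.

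The contrast changed most of the measured transcriptome. A gene was called when its Benjamini-Hochberg (BH) adjusted p in edgeR's quasi-likelihood test was below 0.05 over all 13124 genes, and "rose" or "fell" below means called. Each SE below was derived from that test, as the absolute log2 change divided by the square root of its F statistic. It rests on the fit of all 12 libraries, not on the 6 compared kidneys alone. Of all genes 62.8% were called: 4207 rose (32.1%) and 4034 fell (30.7%). Falls were more numerous past 2-fold, with 1388 genes higher (10.6%) and 1862 lower (14.2%), and past 4-fold, with 429 higher (3.27%) and 643 lower (4.90%), and past 8-fold, with 190 (1.45%) and 259 (1.97%). Past 16-fold the counts were 91 higher (0.693%) and 89 lower (0.678%), and past 32-fold 48 higher (0.366%) and 31 lower (0.236%). In 35.5% of genes all isotype kidneys lay above all sham kidneys and in 33.7% all below, together 69.2%. The split between higher and lower depends on the scaling. With library totals in place of TMM factors 5586 genes were higher and 3095 lower, and the median log2 change of all genes moved from 0.03 to 0.227.

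**Figure D1:**
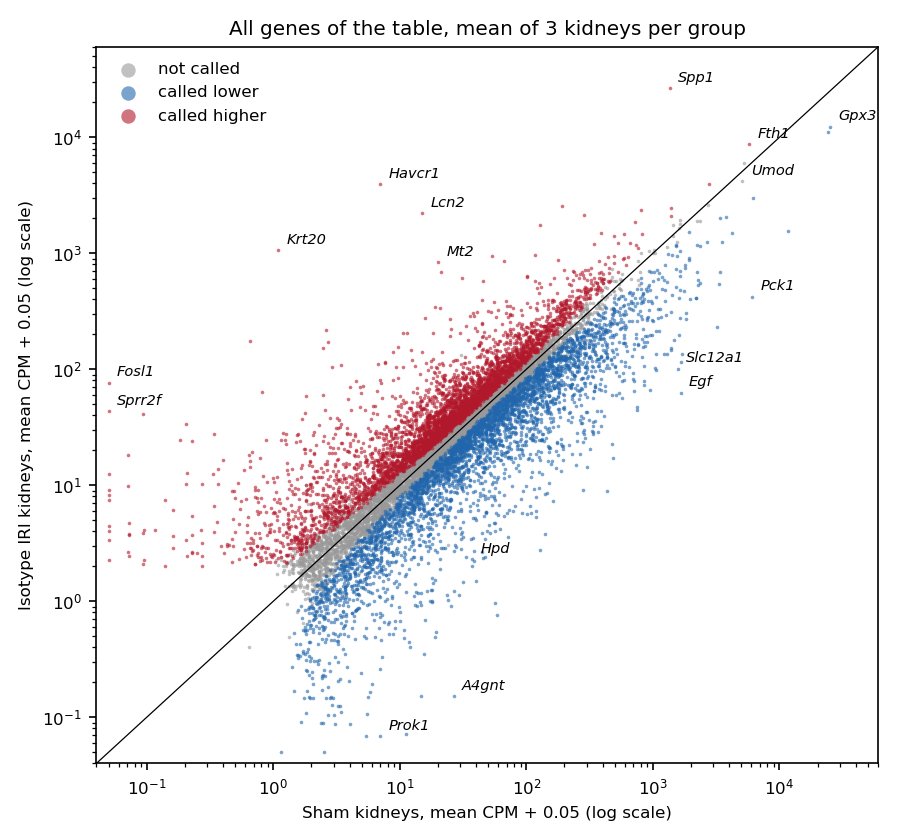
Each point is 1 of the 13124 genes, with its mean CPM plus 0.05 over the 3 sham kidneys on the x axis and over the 3 isotype IRI kidneys on the y axis, both on log scales. Red points were called higher, blue lower and grey neither, and the line marks equal levels. Spp1 lies highest of all, and Fosl1 and Sprr2f stand at the left edge with no count in sham kidneys.

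The genes that took most reads differed between the groups. Genes called lower past 2-fold held 35.6%, 35.5% and 35.8% of the counts in sham kidneys 1 to 3 and 14.2%, 12.0% and 11.2% in kidneys 4 to 6. Genes called higher past 2-fold held 3.77%, 3.70% and 3.57% in sham kidneys 1 to 3 and 15.4%, 17.6% and 18.0% in kidneys 4 to 6. These genes were chosen by the same contrast, so the shares describe the size of the change and test nothing. Among the 10 genes with most reads in sham kidneys were Gpx3, Kap, Pck1, Fth1, Eef1a1, Umod, Acsm2 and Atp5b, a set of antioxidant, androgen-regulated, sugar, iron storage and energy genes. Among the 10 in isotype kidneys were Spp1, Gpx3, Kap, Fth1, Eef1a1, Umod, Ftl1, Havcr1 and Psap. Spp1 (Entrez 20750, GRCm38 chromosome 5, 104435118 to 104441050) encodes osteopontin, a secreted matrix and cytokine-like protein. It stood at 1065, 1903 and 1089 CPM in sham kidneys and at 23146, 27347 and 28860 CPM in kidneys 4 to 6, a log2 change of 4.29 ± 0.977 (SE, n = 3 per group, edgeR BH-adjusted p = 0.00241). Kap, the kidney androgen-regulated protein of proximal tubule cells, went the other way, from 23108, 23010 and 26505 CPM to 14582, 9846 and 8878 CPM. Umod, which encodes the main protein of normal urine, did not pass the test: it stood at 5013, 5315 and 4966 CPM in sham kidneys and at 3260, 4957 and 4425 CPM in isotype kidneys.

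Among the 10 largest rises, of genes with a mean log2 CPM of at least 1 over all 12 libraries of the study, were Krt20, Havcr1, Flnc, Lcn2, Adam8, Gsta1, Timp1, Akr1b8 and Mt2. Krt20, a keratin of stressed epithelium, stood at 1.61, 0.779 and 0.753 CPM in sham kidneys and at 607, 1258 and 1331 CPM in kidneys 4 to 6 (log2 change 9.98 ± 1.81 SE). Havcr1, the gene of kidney injury molecule KIM-1, went from 3.35, 14.3 and 3.08 CPM to 5672, 3090 and 3032 CPM. Sham kidney 2 held the highest sham level of Havcr1, and without it the log2 change was 10.25 in place of 9.15. Flnc (Entrez 68794, chromosome 6, 29433256 to 29461883) encodes a filamin known from muscle, and it went from 0.737, 0.324 and 0.753 CPM to 140, 172 and 218 CPM (log2 change 8.18 ± 1.46 SE). Kidney 4 held less Krt20 and Lcn2 than kidneys 5 and 6 and more Havcr1. Genes of this list were chosen with every isotype kidney above every sham kidney, so that order is not a result. Enzymes of aldehyde and electrophile disposal were among them. Akr1b8, an aldo-keto reductase, went from 3.02, 2.47 and 2.53 CPM to 131, 194 and 195 CPM, and Gsta1, a glutathione transferase, from 3.28, 2.34 and 2.05 CPM to 270, 155 and 229 CPM. Timp1, an inhibitor of matrix proteases, went from 0.402, 1.69 and 0.205 CPM to 103, 42.1 and 46.8 CPM, and its log2 change of 6.35 became 7.68 without sham kidney 2.

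Genes below that mean, among them Fosl1, Sprr2f and Slc7a11 described further on, rose by as much or more. The 10 largest falls by the same rule left genes close to 0. A4gnt (Entrez 333424, chromosome 9, 99612502 to 99622367), a glycosyltransferase, stood at 24.9, 29.7 and 25.1 CPM in sham kidneys and at 0.0556, 0.184 and 0.0637 CPM in kidneys 4 to 6. Its log2 change was −7.94 ± 0.537 (SE, edgeR BH-adjusted p = 1.84e-06), or −8.61 without kidney 5. Nat8f6, of an acetyltransferase family, went from 54.1, 62.1 and 57.9 CPM to 1.44, 0.246 and 0.446 CPM (log2 change −6.29, or −7.36 without kidney 4), and Nccrp1 from 52.5, 41.8 and 76.0 CPM to 0.333, 1.54 and 0.892 CPM (−5.96, or −6.55 without kidney 5). Slc7a12, an amino acid transporter gene, went from 6.23, 29.4 and 10.8 CPM to 0.222, 0.307 and 0.382 CPM, a log2 change of −5.65, or −4.79 without sham kidney 2. The other 6 were low in sham kidneys or are known only by model names. Prok1, which encodes a secreted prokineticin, had 312 counts over the 3 sham libraries and 1 count over the 3 isotype libraries, a ratio of 302 with a 95% counting interval of 53.8 to 12000. Gm4208 had 500 counts and 1 count, a ratio of 484 (86.5 to 19200), Gm38967 239 and 1 (232, interval 41.2 to 9180), and Gm15348 244 and 3 (78.8, interval 26.6 to 385). These intervals cover counting error only. The fitted log2 changes of Prok1, Gm38967 and Gm15348 were −7.94, −7.55 and −6.31, or −9.66, −9.27 and −7.09 without kidney 4, and that of Gm4208 was −8.62, or −10.36 without kidney 6. Gm36139 and Gm29012 completed the list, with log2 changes of −7.08 and −5.69. Without kidney 4 the first was −6.48, and without kidney 5 they were −7.76 and −6.37.

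**Figure D2:**
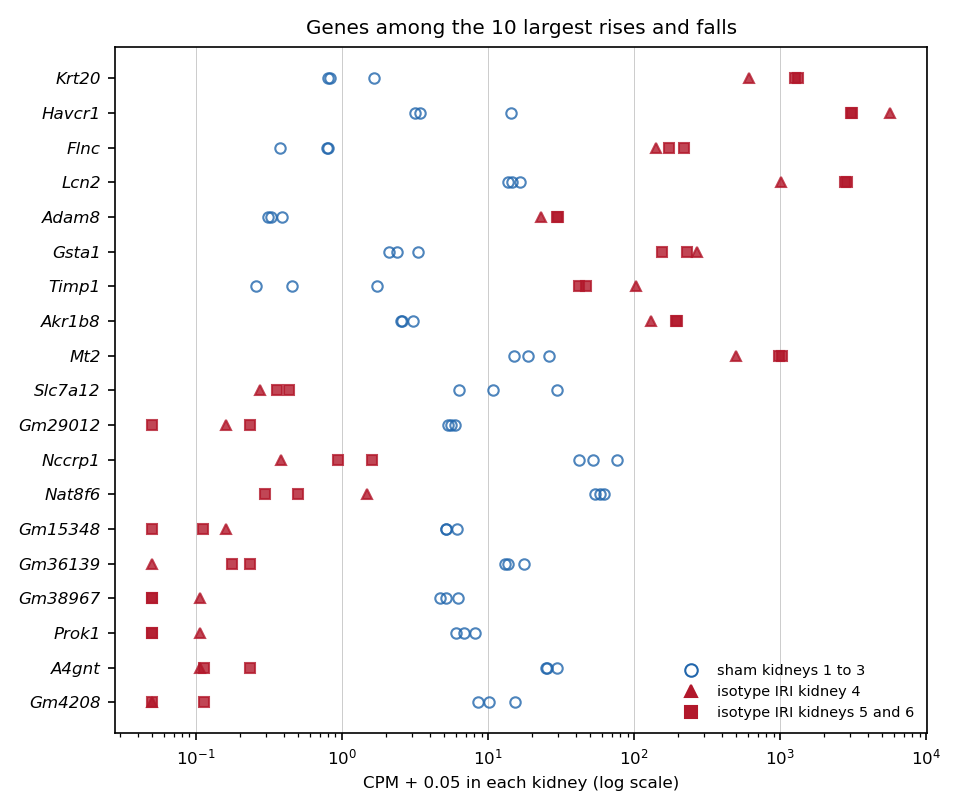
CPM plus 0.05 in each kidney, on a log axis, for genes among the 10 largest rises (upper rows) and the 10 largest falls (lower rows). Open circles are sham kidneys 1 to 3, triangles kidney 4 and squares kidneys 5 and 6. Genes were chosen with groups that do not overlap, so the separation in every row is not a result.

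Non-coding genes moved down more often than up. Of 400 genes annotated as long non-coding RNA 219 fell and 55 rose, against 3766 and 4135 of 12575 protein-coding genes. Past 2-fold the counts were 178 lower and 38 higher of the long non-coding RNAs, and 1646 lower and 1341 higher of the protein-coding genes. The table had been filtered on low counts before it was deposited, which removes many non-coding genes, so these counts describe the abundant ones. Reads from a gene and its overlapping partner on the other strand can be told apart only if strand was used in counting, and that setting was not stated by any source used. The small nucleolar RNA host genes went up instead. They are non-coding carriers of the guide RNAs that modify ribosomal RNA, and 11 of the 15 measured (of 16 listed) rose and none of the 15 fell, with a median log2 change of 1.01. Snhg5 went from 2.41, 2.21 and 1.58 CPM to 11.8, 11.4 and 11.2 CPM, and Gas5 from 48.9, 49.6 and 43.6 CPM to 112, 84.4 and 89.6 CPM.

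The response was then read through 58 lists of genes with a shared role. A list's count of members that rose or fell is a description to be set beside the 32.1% and 30.7% of all genes, and its median beside the all-gene median of 0.03. Genes low in sham kidneys could enter the table through the injured kidneys alone, so counts of inducible genes such as cytokines are partly fixed by that filter. Lists overlap in some members. Reads shared between close relatives, such as ribosomal protein, metallothionein, Sprr2, Nat8, Slc22 and cytochrome genes, may have been split or dropped by the authors' counting, so single members of those families are uncertain.

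**Figure D3:**
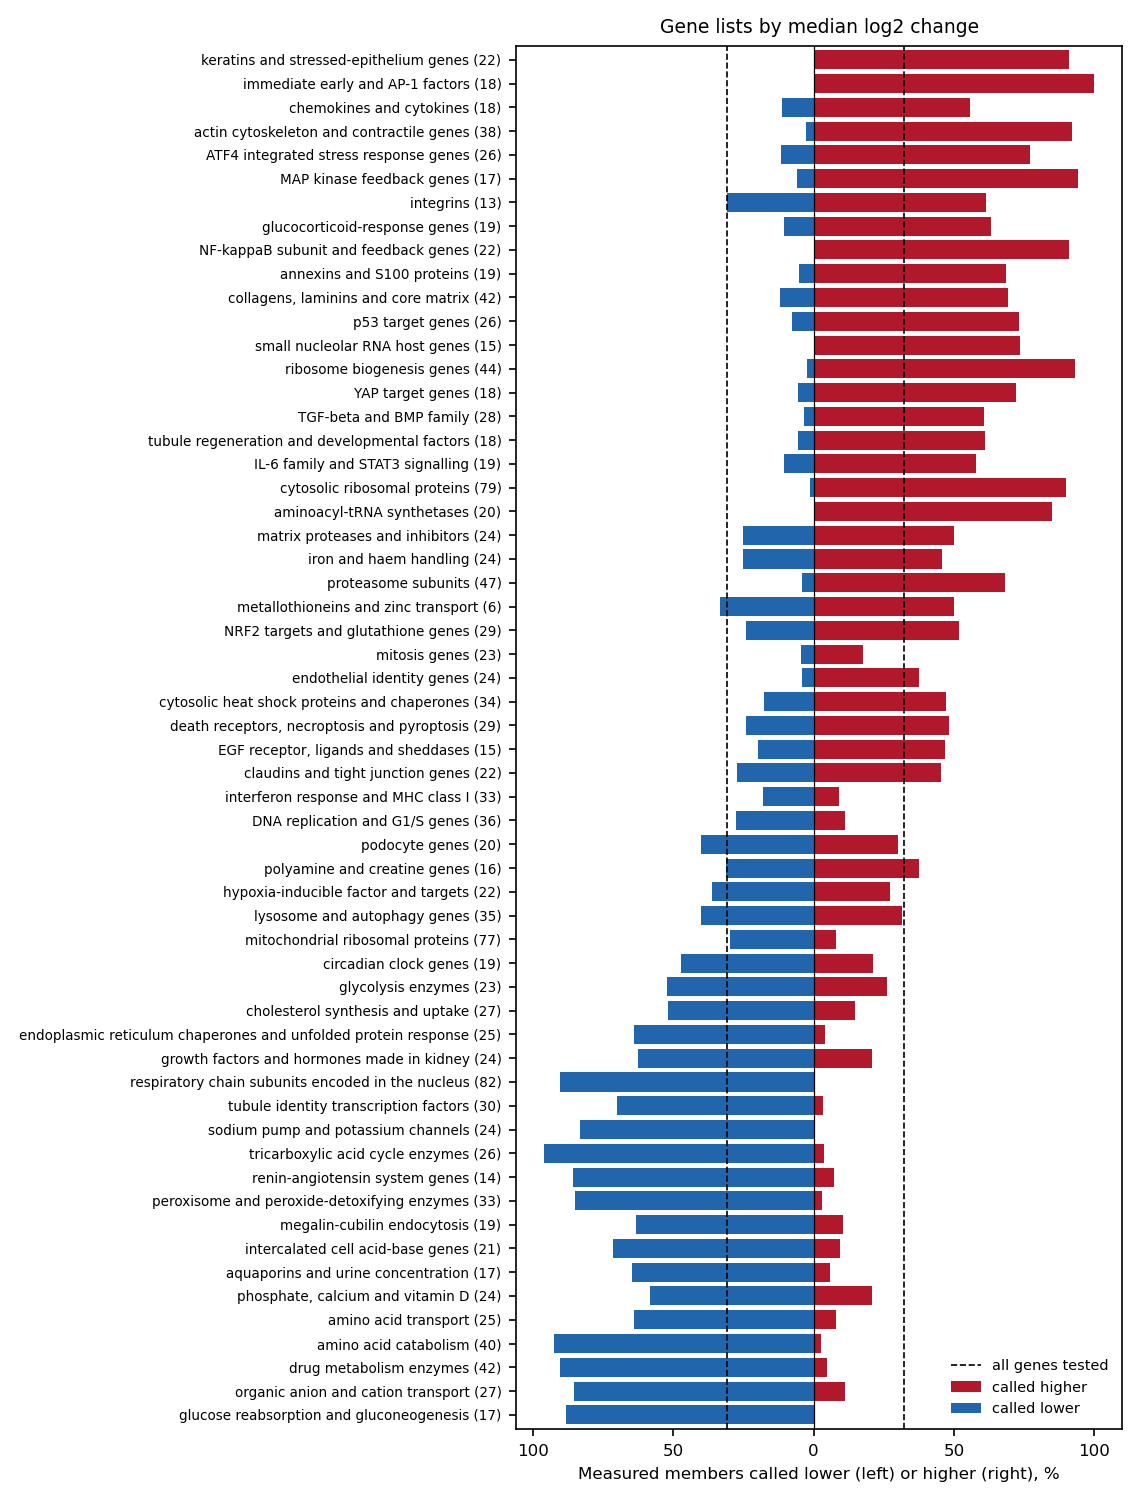
Share of the measured members of each of the 58 lists called higher (red, to the right) or lower (blue, to the left), in percent, with the number of measured members in parentheses and lists ordered by median log2 change. Dashed lines mark the share of all 13124 genes called, 32.1% higher and 30.7% lower. Damage, AP-1, actin and ribosome biogenesis lists stand far to the right, and transport and metabolism lists far to the left.

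Genes of damaged and spreading epithelium rose as a group. Of 22 keratin and stressed-epithelium genes 20 rose, with a median log2 change of 2.96. Krt18, a keratin of simple epithelium, went from 13.5, 17.7 and 16.9 CPM to 109, 108 and 122 CPM, and Vim, the intermediate filament of mesenchymal and dedifferentiated cells, from 37.7, 36.2 and 34.0 CPM to 202, 315 and 348 CPM. Clu, a secreted chaperone, went from 263, 338 and 250 CPM to 2829, 1743 and 1835 CPM. Sprr2f, a gene of the cornified envelope of skin, had no count in any sham library and 2127 counts in the isotype libraries, at least 732-fold higher, taking 3 counts over the 3 sham libraries as the floor. Its relative Sprr2g had 2 counts and 1996 counts, a ratio of 1030 with an interval of 285 to 8510, and its fitted log2 change of 9.59 was 12.23 without sham kidney 2. Krt80 and Itgb6, at log2 changes of 0.39 and 0.15, did not pass the test, though Krt80 did without kidney 4 (0.60).

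Of 19 measured annexin and S100 genes (of 21), which encode calcium-dependent membrane-binding proteins, 13 rose and 1 fell, with a median of 1.07. S100a6 went from 18.8, 16.7 and 21.0 CPM to 488, 270 and 276 CPM, and Anxa2 from 68.6, 65.0 and 66.2 CPM to 916, 821 and 852 CPM. The exception, Anxa13, went from 1.94, 1.56 and 2.19 CPM to 1.11, 0.307 and 0.319 CPM (log2 change −1.67, or −2.57 without kidney 4). Claudins, the tight junction proteins that set which ions pass between cells, moved in both directions: of 22 measured genes of that list (of 25) 10 rose and 6 fell. Cldn2 and Cldn10, which form pores for cations or anions in the proximal tubule and loop, fell. Cldn2 stood at 826, 794 and 819 CPM in sham and 358, 259 and 199 CPM in isotype kidneys, and Cldn10 at 318, 317 and 297 CPM and 60.1, 23.8 and 26.3 CPM. Cldn1 and Cldn4, known as sealing claudins, rose, Cldn1 from 23.5, 24.2 and 26.2 CPM to 179, 195 and 211 CPM and Cldn4 from 18.8, 17.1 and 18.8 CPM to 141, 238 and 235 CPM. Cldn14, which blocks calcium passage in the loop, had 1 count in sham and 134 counts in isotype libraries, a ratio of 138 (interval 24.4 to 5500), with a fitted log2 change of 6.43, or 8.29 without sham kidney 2. Among 13 integrins, the receptors for matrix, 8 rose and 4 fell. Itga5, the alpha chain of the fibronectin receptor, rose most, from 9.78, 9.99 and 9.32 CPM to 65.3, 96.3 and 90.8 CPM, while Itgb8 fell from 240, 244 and 237 CPM to 116, 117 and 101 CPM.

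All 18 measured immediate early and AP-1 genes (of 23) rose, with a median log2 change of 2.22. These factors are switched on within minutes of many stimuli and were high here 24 h after surgery. Fosl1 (Entrez 14283, chromosome 19, 5447547 to 5455946), a Fos family member of AP-1, had no count in the 3 sham libraries and 3800 in the isotype libraries, with 61.1, 81.0 and 88.0 CPM in kidneys 4 to 6, at least 1310-fold higher by the same floor. Atf3 went from 1.14, 1.30 and 1.16 CPM to 24.1, 20.8 and 22.6 CPM, Myc from 7.24, 5.51 and 7.88 CPM to 77.4, 84.2 and 82.5 CPM, and Jun from 26.9, 24.3 and 27.8 CPM to 74.4, 87.1 and 95 CPM. No isotype kidney reached down to a sham kidney in any of the 18, an order found in 35.5% of all genes. Members low in sham kidneys, such as Fosl1, could enter the table through injured kidneys alone, so this count is partly fixed. Of 17 measured genes of MAP kinase feedback (of 18), the phosphatases and adaptors that damp the pathway and are induced by it, 16 rose and Etv5 fell, with a median of 1.32. Dusp5 went from 0.737, 0.843 and 0.616 CPM to 16.6, 15.9 and 18.8 CPM, and Etv5 from 33.6, 29.6 and 27.8 CPM to 20.8, 20.1 and 18.2 CPM.

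Growth factor genes of the EGF family were divided: of 15 measured members (of 18) 7 rose and 3 fell, with a median of 0.14. Egf (Entrez 13645, chromosome 3, 129677565 to 129755316), made in the distal tubule, went from 1584, 1817 and 1576 CPM to 29.0, 90.5 and 68.9 CPM, a log2 change of −4.72 ± 0.479 (SE, edgeR BH-adjusted p = 1.18e-05). Hbegf, a ligand of the same receptor, went from 12.6, 13.2 and 18.1 CPM to 57.8, 37.6 and 35.4 CPM, and Rhbdf2, which assists the shedding protease Adam17, from 13.1, 11.9 and 9.45 CPM to 34.4, 34.5 and 38.9 CPM. Among 24 measured growth factors and hormones made in kidney (of 28) 15 fell and 5 rose, with a median of −0.86. Kl, which encodes the phosphate hormone co-receptor Klotho, stood at 761, 869 and 837 CPM in sham and at 150, 124 and 110 CPM in isotype kidneys. Vegfa fell from 157, 161 and 161 CPM to 86.7, 74.4 and 71.0 CPM, whereas Edn1, the vasoconstrictor endothelin, rose from 1.54, 1.69 and 0.890 CPM to 5.56, 9.28 and 10.0 CPM. Of 18 targets of the mechanosensitive factor YAP 13 rose and 1 fell, with a median of 0.96. The largest rise among them was that of Ccn2, from 51.8, 48.0 and 32.9 CPM to 152, 547 and 498 CPM, with kidney 4 well below the other isotype kidneys. Wwc1, an upstream inhibitor of YAP, was the member that fell, at a log2 change of −0.35, and it lost the call without kidney 1, 3, 5 or 6 and with library totals.

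Factors of kidney development and repair rose and factors of the mature tubule fell. Of 18 measured regeneration and developmental factors (of 20) 11 rose and 1 fell, with a median of 0.83. Sox9 (Entrez 20682, chromosome 11, 112782224 to 112787760), a factor of repairing tubule cells, went from 1.14, 1.23 and 1.03 CPM to 22.7, 32.7 and 29.2 CPM, a log2 change of 4.63 ± 0.921 (SE, edgeR BH-adjusted p = 0.00103). Hmga2, a chromatin protein of embryonic tissue, went from 0.201, 0.195 and 0.479 CPM to 4.56, 7.56 and 7.58 CPM, and Runx1 from 1.81, 2.34 and 0.959 CPM to 19.2, 19.1 and 23.6 CPM. Pax8, which acts in both the developing and the adult tubule, rose from 71.1, 68.7 and 84.9 CPM to 127, 226 and 260 CPM, while Lhx1 fell from 14.8, 14.6 and 12.4 CPM to 4.28, 3.75 and 4.01 CPM. Of 30 tubule identity factors 21 fell and 1 rose, with a median of −0.88. Hnf4a (Entrez 15378, chromosome 2, 163506808 to 163572910), a master factor of proximal tubule maturity, went from 935, 830 and 936 CPM to 357, 255 and 216 CPM, a log2 change of −1.71 ± 0.169 (SE). The coactivator Ppargc1a and the receptors Ppara, Esrra and Esrrg, which drive mitochondrial and fatty acid genes, fell with log2 changes of −1.42, −1.01, −1.39 and −1.49. The 1 rise was that of Zbtb16, a glucocorticoid-induced factor, described with its group further on.

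Promoters of the changed genes were searched for binding motifs of these factors. RefSeq windows of 300 bases (GRCm38.p6), from 250 before to 50 after a transcript's start, were found for 10428 of the tested genes, and a gene counted if any of its windows held the motif on either strand. The AP-1 motif TGANTCA was in 6.54% of all genes, in 121 of 1078 genes called higher past 2-fold (11.2%) and in 119 of 1456 called lower past 2-fold (8.17%). Past 4-fold it was in 52 of 321 higher genes (16.2%) and 45 of 506 lower genes (8.89%). The NF-kappaB motif was in 6.31% of all, 8.44% of higher and 5.49% of lower genes past 2-fold, and in 10.6% and 5.14% past 4-fold. The HNF4 motif CAAAGTCCA was in 0.537% of all, 0.649% of higher and 1.17% of lower genes past 2-fold. Past 4-fold it was in 0.935% of higher and 1.98% of lower genes. The ATF4/C-EBP motif TGATGNAAN was in 2.63%, 2.78% and 3.43% of all, higher and lower genes past 2-fold, and past 4-fold in 4.67% of higher and 3.36% of lower genes. The TATA box TATAAA was in 9.10% of all, 12.6% of higher and 12.4% of lower genes past 2-fold, and past 4-fold in 16.8% and 15.6%. Windows of lower genes past 2-fold held fewer CpG dinucleotides, with a median of 13 against 20 in all genes and 19 in higher genes. Past 4-fold the median was 7 in lower genes and 14 in higher genes. The cAMP motif TGACGTCA was in 3.36%, 2.78% and 1.72% of all, higher and lower genes past 2-fold. The E2F motifs TTTCCCGC and TTTGGCGC were in 3.28%, 3.15% and 1.72%. The serum response CArG box was in 1.52%, 2.41% and 1.10%, the heat shock element in 0.566%, 0.371% and 0.962%, and the antioxidant motif TGACNNNGC, which can overlap an AP-1 match, in 16.9%, 17.7% and 15.2%. These shares are descriptions without a test, and a match is not a bound site.

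The promoters below show such matches beside the changes of their genes. For each motif they belong to the 2 protein-coding genes with the largest called change in the direction named, among those with a mean log2 CPM of at least 1 over all 12 libraries of the study and a match in the 150 bases before the start, which are printed with the match in capitals (GRCm38.p6, strand of the gene). Mt2 (chr8:94172468-94172617, plus strand) and Plaur (chr7:24462333-24462482, plus) rose by log2 changes of 5.38 and 5.00 and hold an AP-1 motif that begins at −79 and −69 from the start. Plaur encodes the urokinase receptor and went from 4.09, 3.37 and 2.67 CPM to 97.0, 103 and 126 CPM. Atf3 (chr1:191183334-191183483, minus) and Sfn (chr4:133602169-133602318, minus) hold the ATF4/C-EBP motif and rose by 4.22 and 3.93. Cxcl1 (chr5:90891095-90891244, plus) and Maff (chr15:79348252-79348401, plus) hold an NF-kappaB motif and rose by 4.92 and 3.44. Aadat (chr8:60505974-60506123, plus), a kynurenine and lysine aminotransferase gene, and Aspdh (chr7:44465285-44465434, plus) hold the HNF4 motif, with log2 changes of −3.14 and −3.05.
Mt2: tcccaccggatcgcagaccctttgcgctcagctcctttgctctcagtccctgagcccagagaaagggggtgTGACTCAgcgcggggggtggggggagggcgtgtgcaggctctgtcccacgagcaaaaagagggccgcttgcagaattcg
Plaur: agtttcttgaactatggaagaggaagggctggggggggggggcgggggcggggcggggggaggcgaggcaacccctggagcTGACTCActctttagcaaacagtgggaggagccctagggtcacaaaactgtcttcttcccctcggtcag
Atf3: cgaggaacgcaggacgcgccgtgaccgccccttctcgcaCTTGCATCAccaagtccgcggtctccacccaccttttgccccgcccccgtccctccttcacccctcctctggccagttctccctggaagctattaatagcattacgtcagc
Sfn: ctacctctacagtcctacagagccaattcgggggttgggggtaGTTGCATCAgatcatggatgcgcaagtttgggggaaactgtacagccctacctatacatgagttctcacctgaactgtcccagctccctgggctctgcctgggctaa
Cxcl1: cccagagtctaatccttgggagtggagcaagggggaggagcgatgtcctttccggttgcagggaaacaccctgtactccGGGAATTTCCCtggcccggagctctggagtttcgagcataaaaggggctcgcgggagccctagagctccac
Maff: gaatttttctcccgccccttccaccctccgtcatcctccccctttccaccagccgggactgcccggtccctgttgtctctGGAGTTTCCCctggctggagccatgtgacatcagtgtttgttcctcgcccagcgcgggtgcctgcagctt
Aadat: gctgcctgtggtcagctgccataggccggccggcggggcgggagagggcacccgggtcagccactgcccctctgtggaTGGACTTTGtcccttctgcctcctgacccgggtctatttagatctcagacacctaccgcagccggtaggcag
Aspdh: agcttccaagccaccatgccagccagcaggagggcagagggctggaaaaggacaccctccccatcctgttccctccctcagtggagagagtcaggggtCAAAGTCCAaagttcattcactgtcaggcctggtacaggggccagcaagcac

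Cytokine signalling genes rose in the IL-6, NF-kappaB and TGF-beta lists and stayed mostly uncalled in the interferon list. Of 19 measured genes of the IL-6 family and STAT3 (of 23) 11 rose and 2 fell, with a median of 0.70. Il11 (Entrez 16156, chromosome 7, 4772373 to 4782859), a cytokine made by stressed epithelium and fibroblasts, went from 0, 0.260 and 0.205 CPM to 23.8, 3.19 and 3.44 CPM. Its log2 change was 5.96 and dropped to 4.34 without kidney 4 (edgeR BH-adjusted p = 0.00867 and 0.0497). Lif showed the same order of kidneys, 29.2, 11.5 and 8.35 CPM against 0.201, 0.649 and 0.205 CPM in sham, with a log2 change of 5.49 that was 4.77 without kidney 4 and 6.28 without sham kidney 2. Osmr, the receptor for oncostatin M, went from 15.7, 13.9 and 11.2 CPM to 72.2, 66.8 and 68.5 CPM. Socs3, the feedback inhibitor of the pathway, went from 3.22, 3.50 and 2.60 CPM to 52.9, 30.9 and 30.7 CPM. Stat3 rose from 92.3, 81.6 and 87.7 CPM to 213, 276 and 269 CPM, and the receptor gene Lifr fell by 0.64 on the log2 scale.

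Of 22 measured NF-kappaB subunit and feedback genes (of 24) 20 rose and none of the 22 fell, with a median of 1.13. Tnfrsf12a, the receptor for the cytokine TWEAK, rose most, from 23.9, 17.6 and 21.0 CPM to 366, 309 and 337 CPM. Nfkbia, the inhibitor that NF-kappaB itself induces, went from 25.7, 22.8 and 22.3 CPM to 43.4, 53.3 and 61.0 CPM, and Tnfaip3 from 7.84, 7.98 and 6.71 CPM to 14.7, 15.5 and 18.6 CPM. In the TGF-beta and BMP family 17 of 28 measured genes (of 29) rose and Bmp7 fell, with a median of 0.83. Tgfb1 went from 11.3, 10.9 and 8.63 CPM to 30.4, 28.1 and 28.2 CPM. Bmp7, known to protect the tubule, fell from 51.3, 54.4 and 55.8 CPM to 23.8, 21.9 and 21.7 CPM. Without kidney 4 there were 4 falls in this list.

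Of 34 chemokine and cytokine genes 18 had an entry, and 10 of them rose and 2 fell, with a median of 2.07. Cxcl1, a neutrophil attractant whose promoter is shown above, went from 0.402, 0.843 and 0.548 CPM to 24.9, 13.3 and 16.8 CPM. Cxcl2, of the same function, had 3 counts in sham and 203 in isotype libraries, a ratio of 69.9 (interval 23.6 to 342), and its fitted log2 change of 5.76 was 6.61 without sham kidney 1. Il24, a cytokine of the IL-10 family, had 0 and 169 counts, at least 58.2-fold higher by the same floor. DESeq2 gave Il24 a BH-adjusted p of 0.0613, so its call depended on the method. Ccl2, a monocyte attractant, went from 0.268, 0.843 and 0.342 CPM to 8.55, 2.46 and 2.68 CPM. Its log2 change was 3.21 with an edgeR BH-adjusted p of 0.0128, and 2.37 with 0.0648 without kidney 4, or 3.87 without sham kidney 2. Il34 and Csf1, both ligands of the macrophage receptor Csf1r, stood at 97.5, 100 and 89.0 CPM and at 76.1, 50.9 and 49.6 CPM in kidneys 4 to 6, against 22.2, 15.6 and 23.1 CPM and 10.6, 10.6 and 8.77 CPM in sham. Ccl28 and Cxcl12 fell, Cxcl12 from 206, 166 and 160 CPM to 50.7, 49.6 and 35.4 CPM. Of the 6 macrophage markers Cd68 rose and Csf1r itself fell, and their summed level was 94.8 to 137 CPM in sham and 125 to 185 CPM in isotype kidneys. The part of infiltrating cells in the cytokine lists was not tested. In contrast to these lists, 24 of 33 measured interferon and MHC class I genes (of 35) were not called, 3 rose and 6 fell, and the median was 0.03, the same as that of all genes. Ifit3 went from 18.2, 24.4 and 18.1 CPM to 12.1, 9.09 and 4.33 CPM and fell, whereas Isg20 rose. With library totals 9 genes of this list were higher.

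Cytoskeleton genes rose together. Of 38 actin, myosin, tubulin and contractile genes 35 rose and Vil1 fell, with a median of 1.58. The list held 0.520%, 0.486% and 0.525% of all counts in sham kidneys and 1.45%, 1.65% and 1.66% in isotype kidneys (two-sided exact permutation p = 0.1, the smallest that 3 against 3 allows). The lists were chosen with earlier results of these data known. Here and below, such a p therefore restates only that the groups did not overlap. Actb, cytoplasmic actin and often used as a reference gene, went from 458, 464 and 544 CPM to 1216, 1529 and 1463 CPM. Tubb6, a tubulin, went from 3.89, 5.32 and 4.11 CPM to 66.4, 81.9 and 89.6 CPM, and Acta2, the smooth muscle actin of myofibroblasts, from 34.4, 31.4 and 34.0 CPM to 155, 278 and 277 CPM. Vil1, the villin that bundles actin in the brush border, was the member that fell, from 285, 227 and 267 CPM to 231, 149 and 119 CPM, a call lost without kidney 5 or 6 and with library totals. Matrix genes rose too: 29 of 42 measured collagens, laminins and core matrix genes (of 45) were higher and 5 lower, with a median of 1.05. Tnc, a matrix protein of healing tissue, went from 12.9, 6.88 and 6.58 CPM to 132, 159 and 129 CPM, and Col1a1 from 38.6, 35 and 27.3 CPM to 110, 101 and 95 CPM. The basement membrane collagens moved in opposite directions by chain. Col4a1 and Col4a2, the chains found in most basement membranes, rose by log2 changes of 1.82 and 1.86. Col4a3, Col4a4 and Col4a5, the chains of the mature glomerular membrane, fell, with Col4a3 going from 417, 346 and 364 CPM to 105, 134 and 126 CPM.

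Proteases of matrix and of the cell surface were also divided, with 12 of 24 measured genes (of 26) higher and 6 lower. Mmp10, which cleaves several matrix proteins, had 0 counts in sham and 442 in isotype libraries, at least 152-fold higher by the same floor. Mmp3 went from 0.536, 0.584 and 0.205 CPM to 8.89, 10.5 and 7.20 CPM. The meprins of the brush border fell, Mep1b from 238, 296 and 301 CPM to 9.67, 9.71 and 7.77 CPM and Mep1a from 2296, 2120 and 2408 CPM to 601, 524 and 479 CPM. The inhibitor Timp3 fell from 2341, 2049 and 2693 CPM to 923, 1327 and 1211 CPM, the opposite direction to its relative Timp1.

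Targets of p53, a factor that restrains the cell cycle, mostly rose: 19 of 26 measured genes (of 27) rose and 2 fell, with a median of 1.04. Cdkn1a (Entrez 12575, chromosome 17, 29090976 to 29100727), which encodes the cell cycle inhibitor p21, went from 12.4, 8.56 and 10.7 CPM to 120, 230 and 261 CPM, a log2 change of 4.27 ± 0.551 (SE, edgeR BH-adjusted p = 5.46e-05). Plk3, a stress kinase, went from 5.36, 3.44 and 5.62 CPM to 37.8, 80.8 and 93.9 CPM, and Mdm2, which degrades p53, from 47.5, 51.0 and 56.5 CPM to 79.4, 81.1 and 86.4 CPM. Rrm2b, also a p53 target, fell from 53.3, 54.4 and 55.9 CPM to 32.6, 29.4 and 27.1 CPM. Genes of DNA replication did not rise as a list: 4 of 36 measured (of 38) rose, 10 fell and the median was 0.00. The helicase subunit Mcm2 stood at 26.1, 28.6 and 24.7 CPM in sham and at 40.3, 25.3 and 24.1 CPM in isotype kidneys, and the groups overlapped. The nucleotide synthesis enzymes Tyms and Tk1 fell. Tk1 had a log2 change of −1.69, or −2.47 without kidney 4. Rises numbered 2 without kidney 1, 3, 4 or 5, and 8 when only the 6 compared samples were fitted.

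Mitosis genes likewise showed few calls, with 4 rises and 1 fall among 23 measured (of 28). Mki67, the proliferation antigen, stood at 5.70, 12.7 and 5.82 CPM in sham kidneys and at 5.56, 8.85 and 8.28 CPM in isotype kidneys. Sham kidney 2 held the highest level of both Mki67 and Top2a, and its mean over the list was 0.60 above the sham mean on the log2 scale, against 0.20, 0.66 and 0.74 in kidneys 4 to 6. Without sham kidney 2, 10 mitosis genes were higher. Anln, which organises the ring that divides cells, rose from 1.34, 3.83 and 2.05 CPM to 7.44, 10.1 and 9.81 CPM, and Ect2 fell. Among 29 measured genes of regulated death (of 32) 14 rose and 7 fell, with a median of 0.36. Ripk3 and Mlkl, the kinase and the membrane-breaking effector of necroptosis, rose from 0.804, 0.714 and 0.685 CPM to 5.28, 6.63 and 5.67 CPM and from 1.94, 2.27 and 1.44 CPM to 17.7, 18.7 and 24.3 CPM. Gpx4, which protects against ferroptosis, fell from 833, 961 and 952 CPM to 700, 424 and 425 CPM, and the survival gene Bcl2 from 21.1, 21.0 and 18.1 CPM to 12.7, 13.9 and 13.4 CPM. Falls in this list numbered 4 with library totals.

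Genes for making ribosomes and charging transfer RNAs rose together, and chaperones of the endoplasmic reticulum fell. Of 44 ribosome biogenesis genes, which process ribosomal RNA in the nucleolus, 41 rose and Utp20 fell, with a median of 0.96. The call of Utp20 was lost without kidney 1, 2, 5 or 6 and with library totals. Nop56 went from 21.6, 21.5 and 22.9 CPM to 96.5, 62.9 and 55.1 CPM, and nucleolin (Ncl) from 249, 223 and 263 CPM to 542, 682 and 706 CPM. Of 79 cytosolic ribosomal protein genes 71 rose and Rpl3l fell (a call lost without kidney 2), with a median of 0.65. They held 1.61%, 1.97% and 1.84% of all counts in sham kidneys and 4.2%, 2.82% and 3.01% in kidneys 4 to 6 (two-sided exact permutation p = 0.1, the smallest possible). Kidney 4 was the highest, for example in Rpl12, at 187, 243 and 223 CPM in sham and 737, 412 and 466 CPM in isotype kidneys. Of 20 aminoacyl-tRNA synthetases, which charge transfer RNAs, 17 rose and none of the 20 fell, with a median of 0.65. Mitochondrial ribosomal proteins showed no such rise: 48 of 77 were not called, 6 rose, and 23 fell, a share near the 30.7% of all genes, with a median of −0.19. Their falls numbered 44 without kidney 4, 15 and 10 without sham kidney 2 or 3, 10 and 9 without kidney 5 or 6, and 8 with library totals. Kidney 4 stood 0.11 above the sham mean over this list, and kidneys 5 and 6 stood at −0.35 and −0.34 from it.

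Genes of the integrated stress response, in which the factor Atf4 raises amino acid supply, mostly rose: 20 of 26 measured (of 28) were higher and 3 lower, with a median of 1.42. Slc7a11 (Entrez 26570, chromosome 3, 49892526 to 50443614), the cystine importer that is also a target of NRF2, went from 0.0670, 0.260 and 0.137 CPM to 12.0, 43.0 and 45.3 CPM, a log2 change of 7.67 ± 0.834 (SE, edgeR BH-adjusted p = 1.83e-05). Atf4 itself went from 84.7, 71.0 and 87.5 CPM to 177, 191 and 222 CPM, and Asns, asparagine synthetase, from 4.29, 4.22 and 7.4 CPM to 38.8, 47.1 and 48.0 CPM. Cth and Shmt2, enzymes of cysteine and serine metabolism that are abundant in healthy tubule, fell, Cth from 247, 240 and 247 CPM to 77.8, 35.2 and 32.9 CPM. The chaperones of the endoplasmic reticulum, targets of the unfolded protein response, went the other way. Of 25 measured (of 26) 16 fell and 1 rose, with a median of −0.51. Hspa5 (Entrez 14828, chromosome 2, 34771970 to 34777547), the master chaperone BiP, went from 1068, 830 and 1127 CPM to 632, 477 and 608 CPM, and Herpud1 from 303, 266 and 295 CPM to 77.6, 90.0 and 108 CPM. The sensors Atf6, Ern1 and Eif2ak3 had log2 changes of 0.17, 0.22 and 0.09 and were not called, though Atf6 and Ern1 were with library totals.

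Cytosolic heat shock genes were mixed, with 16 of 34 higher, 6 lower and a median of 0.38. Hspb1, a small heat shock protein that binds actin, rose from 8.24, 11.7 and 9.04 CPM to 122, 176 and 166 CPM. All 8 subunits of the CCT complex, which folds actin and tubulin, rose, by 0.39 to 0.96 on the log2 scale. The inducible Hspa1b stood at 15.9, 13.2 and 19.0 CPM in sham and 24.4, 22.0 and 20.5 CPM in isotype kidneys and was not called (limma-voom called it, with a BH-adjusted p of 0.0473), and the mitochondrial chaperone Hspd1 fell by 0.55 on the log2 scale. Of 47 proteasome genes 32 rose and 2 fell, with a median of 0.42. The 2 were Psmb9, a subunit of the interferon-induced proteasome, and Psme4, whose calls were lost without kidney 6 and without kidney 1. Lysosome and autophagy genes were split, 11 of 35 measured (of 36) higher and 14 lower, against 32.1% and 30.7% of all genes. Ctsd, a lysosomal protease, rose from 771, 868 and 779 CPM to 2124, 2455 and 2529 CPM, and the mitophagy receptor Bnip3 fell from 309, 273 and 263 CPM to 90.8, 86.2 and 76.5 CPM. The median of this list was −0.15 and became 0.05 with library totals.

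**Figure D4:**
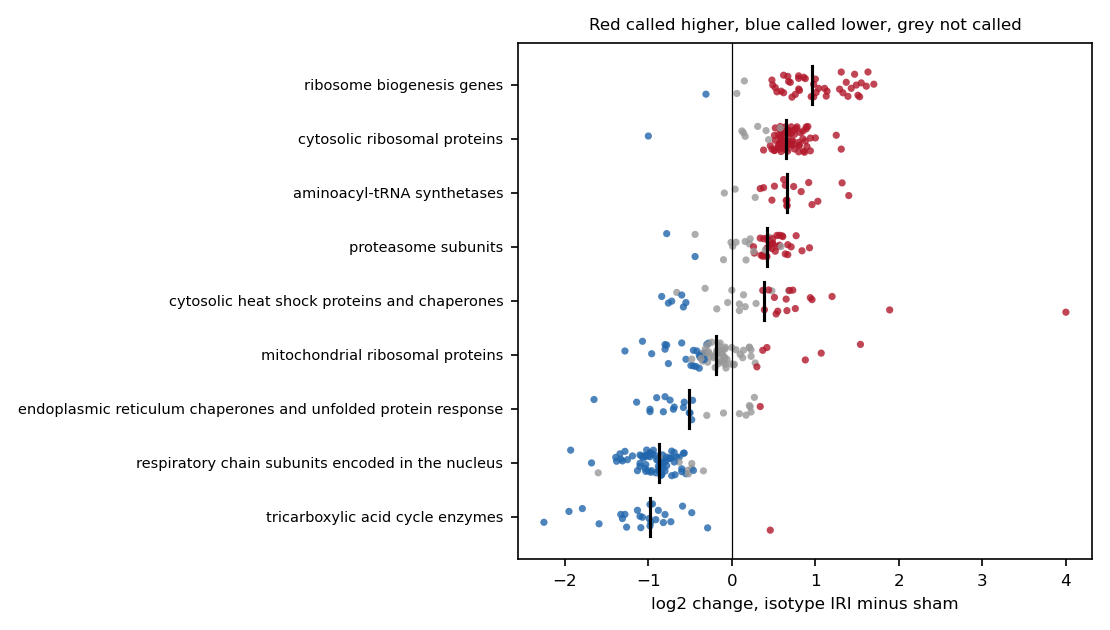
Log2 change of each measured gene in 9 lists, isotype IRI minus sham, with a black bar at the median of the list and small vertical jitter. The medians run from 0.96 for ribosome biogenesis to −0.99 for the tricarboxylic acid cycle list, which includes enzymes of adjoining steps. All 82 respiratory chain genes lie below 0.

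Transcripts of the respiratory chain, the tricarboxylic acid cycle and peroxisomes mostly fell. All 82 nuclear genes of respiratory chain subunits had a negative log2 change, 74 were called lower and the median was −0.88. They held 2.72%, 2.98% and 2.92% of counts in sham kidneys and 2.04%, 1.61% and 1.61% in isotype kidneys (two-sided exact permutation p = 0.1, the smallest possible). Sdha, of complex II, went from 1073, 1022 and 1056 CPM to 427, 437 and 403 CPM, and Ndufs1, of complex I, from 428, 409 and 432 CPM to 175, 158 and 152 CPM. Of 26 enzymes of the tricarboxylic acid cycle and of adjoining steps, such as Pcx and Pck2, 25 fell, with a median of −0.99. Pcx, pyruvate carboxylase, went from 1064, 901 and 882 CPM to 200, 208 and 189 CPM. Pck2 rose, at a log2 change of 0.46, and lost the call when kidney 3 or 5 was left out. Of 33 peroxisome and peroxide-detoxifying genes 28 fell and Prdx1 rose, with a median of −1.03. Catalase (Cat) went from 1730, 1592 and 1552 CPM to 582, 648 and 663 CPM, and the superoxide dismutase of mitochondria, Sod2, from 366, 408 and 394 CPM to 145, 124 and 121 CPM. Prdx1, an inducible peroxiredoxin, went from 1336, 1447 and 1399 CPM to 2211, 2386 and 2781 CPM.

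Genes of glucose reabsorption and gluconeogenesis had the lowest median of the 58 lists: 15 of 17 fell and none of the 17 rose, with a median of −2.90. Pck1 (Entrez 18534, chromosome 2, 173153048 to 173159273), which commits carbon to glucose, went from 7551, 5271 and 5395 CPM to 568, 388 and 310 CPM, a log2 change of −3.85 ± 0.329 (SE, edgeR BH-adjusted p = 5.42e-06). G6pc, which releases free glucose, went from 374, 541 and 532 CPM to 24.2, 16.5 and 10.9 CPM, and Fbp1 from 1313, 1385 and 1209 CPM to 157, 136 and 117 CPM. Khk, which phosphorylates fructose, fell too, with a log2 change of −3.06. Glycolysis enzymes did not mirror this: 6 of 23 rose and 12 fell, with a median of −0.31. The members that rose included Hk2, from 1.01, 0.843 and 0.959 CPM to 13.4, 10.9 and 10.3 CPM, Eno2, and the lactate exporter Slc16a3, at 1.01, 0.584 and 0.479 CPM against 3.94, 2.03 and 2.80 CPM. The reference gene Gapdh fell by 0.35 on the log2 scale, a call lost with library totals, and falls in the list then numbered 6 in place of 12. Of 22 measured genes of the hypoxia factor and its targets (of 24) 6 rose and 8 fell, shares near the 32.1% and 30.7% of all genes. Their median of −0.10 turned to 0.10 with library totals. Lox went from 3.62, 3.24 and 2.26 CPM to 12.9, 35.7 and 35 CPM, and Car12 from 328, 325 and 336 CPM to 113, 74.7 and 75.5 CPM.

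Transcripts of nearly all enzymes of amino acid breakdown were lower: 37 of 40 fell and Got1 rose, with a median of −1.57. The enzymes that turn tryptophan into nicotinamide precursors were among the largest falls. Kmo went from 131, 174 and 170 CPM to 25, 12.5 and 11.2 CPM, Haao from 178, 160 and 191 CPM to 29.1, 13.3 and 12.0 CPM, and Acmsd, which diverts the pathway away from NAD, from 71.6, 135 and 169 CPM to 17.7, 6.20 and 4.59 CPM. Kidney 4 kept more of each than kidneys 5 and 6, and the log2 change of Acmsd was −3.71, or −4.53 without it. Hpd, of tyrosine breakdown, fell from 45.6, 21.4 and 44.6 CPM to 2.72, 1.54 and 2.55 CPM. Got1, an aspartate transaminase, rose by 0.35, a call lost without kidney 1, 2, 5 or 6. Genes of cholesterol synthesis and uptake were not uniform: 14 of 27 fell and 4 rose, with a median of −0.37. Hmgcs1 went from 838, 722 and 746 CPM to 184, 156 and 144 CPM and Cyp51 from 315, 386 and 337 CPM to 71.7, 68.3 and 69.3 CPM. Msmo1, a sterol oxidase, rose from 31.5, 28.7 and 61.0 CPM to 91.5, 91.5 and 85.5 CPM. Rises in this list numbered 2 without kidney 1, 2, 5 or 6.

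Antioxidant, metal and polyamine genes were divided by member. Of 29 NRF2 target and glutathione genes 15 rose and 7 fell, with a median of 0.41. Srxn1, which repairs peroxiredoxins, went from 140, 118 and 126 CPM to 1048, 1902 and 2323 CPM, and Hmox1 (Entrez 15368, chromosome 8, 75093621 to 75100589), which degrades haem, from 52.1, 41.4 and 42.3 CPM to 589, 692 and 446 CPM. Nqo1, often used as the reporter of NRF2, stood at 254, 219 and 198 CPM in sham and at 240, 256 and 328 CPM in isotype kidneys and was not called. Gclc, of glutathione synthesis, was at 583, 447 and 403 CPM in sham and at 397 CPM in kidney 4 but 900 CPM in both kidneys 5 and 6. It was not called, but was without kidney 4 or 1, with library totals and in DESeq2. Ggt1, the brush border enzyme that recovers glutathione, fell from 1062, 1041 and 1202 CPM to 432, 315 and 255 CPM. Of 24 measured iron and haem genes (of 26) 11 rose and 6 fell. The ferritin subunits Fth1 and Ftl1 rose by 0.60 and 0.50 on the log2 scale, and Ftl1 lost the call without kidney 1, 2, 4 or 5. Tfrc, the transferrin receptor, fell by 0.65. Both measured metallothionein genes rose: Mt2 (Entrez 17750, chromosome 8, 94172664 to 94173568) went from 15.0, 26.2 and 18.7 CPM to 499, 1025 and 980 CPM and Mt1 from 43.1, 63.9 and 54.5 CPM to 554, 1166 and 1111 CPM. Among 16 measured polyamine and creatine genes (of 17) 6 rose and 5 fell, shares near the 32.1% and 30.7% of all genes. Gatm, which makes the precursor of creatine, fell from 730, 1046 and 1071 CPM to 97.2, 48.4 and 51.0 CPM, and Smox, which oxidises spermine, rose from 6.70, 6.16 and 6.10 CPM to 41.9, 51.8 and 51.2 CPM.

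Falls outnumbered rises in every list of tubule transporters. Solute carriers as a family held 4.57%, 4.65% and 4.63% of all counts in sham kidneys and 2.33%, 2.16% and 2.07% in isotype kidneys (two-sided exact permutation p = 0.1, the smallest possible), and 153 of 283 fell while 54 rose. The family was chosen after its values were seen, so this p restates only that the groups did not overlap. The proximal tubule markers fell as well, as given above, and the part of lost tubule cells in these lists was not tested. Of 27 organic ion transporters 23 fell and 3 rose, with a median of −2.27. Slc22a6, the main uptake transporter for anionic drugs, went from 1596, 1146 and 1687 CPM to 314, 134 and 88.9 CPM (log2 change −3.04, or −3.72 without kidney 4), and Slco4c1 from 23.9, 25.7 and 20.4 CPM to 1.22, 0.860 and 1.15 CPM. The members that rose were the export pumps Abcb1a, Abcb1b and Abcc4, with Abcb1b going from 11.5, 15.9 and 12.2 CPM to 28.4, 40.9 and 55.0 CPM. Abcc4 lost the call without kidney 3 or 6. Of 42 measured drug metabolism enzymes (of 44) 38 fell and 2 rose, with a median of −2.25, and the list went from 2.44%, 2.40% and 2.52% of counts to 0.760%, 0.752% and 0.652%. Cyp7b1 fell from 299, 247 and 356 CPM to 21.4, 13.1 and 8.66 CPM, while Cyp1b1 rose from 41.0, 32.3 and 26.4 CPM to 70.6, 99.8 and 86.8 CPM.

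Of 25 measured amino acid transporters (of 26) 16 fell and 2 rose, with a median of −1.41. Slc7a9 and Slc3a1, which together import cystine and dibasic amino acids, fell, Slc3a1 from 891, 893 and 893 CPM to 252, 166 and 168 CPM. Slc6a19, the main neutral amino acid importer, did not pass the test, at 229, 302 and 271 CPM in sham and 136, 241 and 289 CPM in isotype kidneys, where the groups overlapped. The 2 rises were Slc38a2, induced by amino acid shortage, from 91.6, 74.6 and 86.8 CPM to 159, 273 and 296 CPM, and Slc1a5. Transcripts of the receptors for protein uptake fell: of 19 megalin and cubilin genes 12 fell and 2 rose, with a median of −1.06. Megalin (Lrp2) went from 2596, 2003 and 1994 CPM to 538, 341 and 349 CPM and Cubn from 756, 684 and 637 CPM to 148, 65.9 and 64.9 CPM, whereas the adaptor Dab2 had a log2 change of −0.21 and was not called. Pdzk1, a scaffold of brush border transporters, had a log2 change of −3.16, or −3.77 without kidney 4. Rises numbered 4 without kidney 4 and with library totals.

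Of 24 measured genes of phosphate, calcium and vitamin D (of 26) 14 fell and 5 rose, with a median of −1.40. Slc34a1, the main phosphate importer, went from 2870, 3431 and 3914 CPM to 701, 725 and 627 CPM. Cyp27b1 (Entrez 13115, chromosome 10, 127048250 to 127053006), which activates vitamin D, rose from 0.871, 2.66 and 1.64 CPM to 9.33, 65.9 and 49.4 CPM, with kidney 4 far below the other isotype kidneys. The vitamin D receptor Vdr fell from 398, 335 and 397 CPM to 96.0, 111 and 113 CPM. Cyp24a1, which inactivates vitamin D, also fell, at a log2 change of −1.95, or −2.54 without kidney 4. Downstream, 20 of 24 genes of the sodium pump, potassium channels and salt transport fell and none of the 24 rose, with a median of −0.92. Slc12a1, which carries sodium, potassium and chloride into cells of the ascending limb, went from 1602, 1518 and 1587 CPM to 106, 100 and 97.5 CPM, a log2 change of −3.95 ± 0.273 (SE, edgeR BH-adjusted p = 1.99e-06). Umod, made by the same cells, was not called, as shown above. Slc12a3, the cotransporter of the distal convoluted tubule, fell from 553, 750 and 586 CPM to 402, 350 and 352 CPM, and whether it differed from that of Slc12a1 was not tested.

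Of 17 measured genes of water transport and urine concentration (of 18) 11 fell and 1 rose, with a median of −1.20. Aqp1, the water channel of the proximal tubule, went from 1086, 1164 and 1416 CPM to 133, 145 and 130 CPM. Aqp2, the vasopressin-regulated channel of the collecting duct, stood at 232, 221 and 248 CPM in sham and at 117, 198 and 178 CPM in isotype kidneys. Its log2 change of −0.51 was called (edgeR BH-adjusted p = 0.0313), but not without kidney 1, 2, 3 or 4 (0.0639, 0.0503, 0.0884 and 0.0915) nor with library totals (0.136). Nfat5, the factor that responds to high salt, rose from 140, 117 and 101 CPM to 175, 184 and 194 CPM. Of 21 intercalated cell genes 15 fell and 2 rose, with a median of −1.09. Slc4a1, the bicarbonate exchanger of acid-secreting cells, went from 69.4, 79.5 and 69.9 CPM to 11.2, 5.10 and 1.78 CPM (log2 change −3.58, or −4.40 without kidney 4). Slc26a4, the exchanger of bicarbonate-secreting cells, was at 45.9, 44.6 and 52.7 CPM and at 39.2, 36.2 and 42.0 CPM. It was called only when the 6 compared samples were fitted alone.

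Endocrine and rhythmic genes changed in part. Of 19 glucocorticoid-response genes 12 rose and 2 fell, with a median of 1.19, and DESeq2 and limma-voom each called 4 falls. The list includes Lcn2, Mt2 and Cdkn1a, named above as injury, metallothionein and p53 target genes, and Lcn2 was its largest rise. Zbtb16 (Entrez 235320, chromosome 9, 48654297 to 48836222), a factor induced by glucocorticoids, went from 1.94, 3.24 and 6.92 CPM to 12.8, 55.1 and 66.8 CPM, a log2 change of 3.48 ± 0.625 (SE, edgeR BH-adjusted p = 0.000525), or 4.11 without sham kidney 3. Fkbp5, a chaperone of the receptor, stood at 106, 92.9 and 132 CPM in sham kidneys, 120 CPM in kidney 4 and 280 and 301 CPM in kidneys 5 and 6. Tsc22d3 was at 41.4, 43.6 and 50.7 CPM in sham, 21.7 CPM in kidney 4 and 64.0 and 70.1 CPM in kidneys 5 and 6. Kidney 4 thus lay below all sham kidneys for Tsc22d3 while kidneys 5 and 6 lay above. The gene was not called, but was without kidney 4. Of 19 clock genes 9 fell and 4 rose. The output factor Hlf fell from 145, 127 and 151 CPM to 12.7, 6.33 and 5.99 CPM. Per1, also a glucocorticoid target, rose from 24.7, 25 and 18.5 CPM to 26.5, 68.7 and 79.4 CPM. The labels give no time of day. Of 14 measured renin-angiotensin genes (of 16) 12 fell and 1 rose, with a median of −1.0. Agt, angiotensinogen, went from 149, 122 and 107 CPM to 19.4, 25.7 and 27.8 CPM, and Ren1, renin, was called only without kidney 4 among the settings tried, at 80.8, 102 and 101 CPM in sham and 66.2, 132 and 194 CPM in isotype kidneys.

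Podocyte and endothelial genes moved in both directions or mostly stayed uncalled. Of 20 measured podocyte genes (of 21) 6 rose and 8 fell, against 32.1% and 30.7% of all genes. Their median was −0.09, and 0.11 with library totals. Nphs1, nephrin of the filtration slit, fell from 26.1, 31.9 and 27.5 CPM to 17.2, 18.7 and 19.0 CPM. Cd2ap, an adaptor also present in tubule, rose by 1.53. Of 24 endothelial genes 9 rose and Tek fell, against 32.1% and 30.7% of all genes, with a median of 0.38. Pecam1, a junction protein of endothelium, rose from 86.2, 81.5 and 69.4 CPM to 106, 148 and 143 CPM, and Plat, a plasminogen activator, from 70.2, 68.3 and 65.0 CPM to 218, 203 and 212 CPM. Endothelial rises numbered 16 with library totals and 14 without kidney 4. The call of Tek was lost without kidney 1, 2 or 4 and with library totals.

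Within the injured group, kidney 4 lay nearest to the sham mean in 34 of the 58 lists and farthest from it in 17. In genes called higher past 2-fold its median difference from the mean of kidneys 5 and 6 was −0.199 on the log2 scale, and it was the lowest of the 3 in 845 of 1388 genes. In genes called lower past 2-fold the difference was 0.362, and it was the highest of the 3 in 1297 of 1862. On the same scale the mean of the amino acid catabolism list differed from sham by −1.48, −1.94 and −1.98 in kidneys 4 to 6, that of the respiratory chain by −0.61, −1.12 and −1.08, and that of the glucocorticoid-response list by 0.90, 1.86 and 1.85. Kidney 4 was the farthest from sham for chemokines and cytokines, at 2.29, 1.51 and 1.53, and for cytosolic ribosomal proteins, at 0.99, 0.39 and 0.49. For replication genes it lay on the other side of sham from kidneys 5 and 6, at 0.27, −0.34 and −0.38. Without kidney 4 the table gave 4310 higher and 4252 lower calls. These values describe 1 kidney against 2 and have no test.

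**Figure D5:**
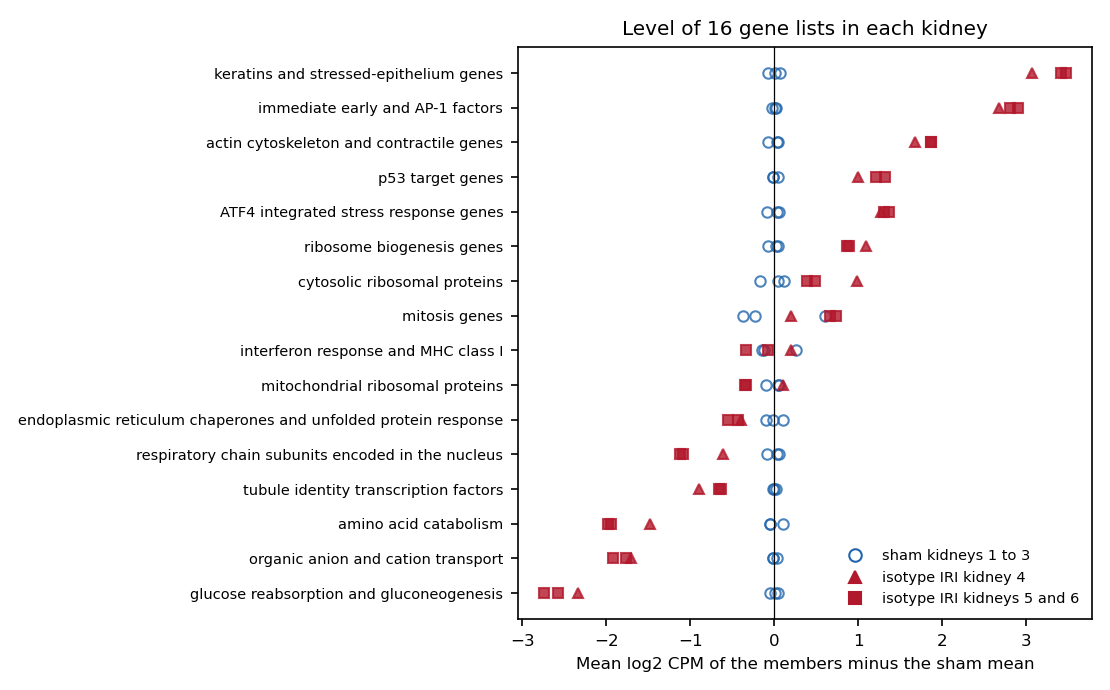
Mean log2 CPM of the members of 16 lists in each kidney, minus the mean of the 3 sham kidneys. Circles are sham kidneys, triangles kidney 4 and squares kidneys 5 and 6. Keratins lie at 3.07 to 3.47 and gluconeogenesis at −2.33 to −2.74, with kidney 4 nearest to sham in both, and farthest from sham in cytosolic ribosomal proteins.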

How the data were processed

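RNA of whole mouse kidneys was sequenced in strand-specific single-end Illumina runs of 100 bases, per the labels' protocols. The deposited file is 1 table of raw read counts per gene, with 12 kidneys as columns, made by the authors. Per the submitters' processing notes, TopHat2 2.1.0, Bowtie2 2.2.5, featureCounts and genome build GRCm38.p4 were used. No source used here gives the counting options. Every gene reaches 2.01 CPM in at least 3 libraries, so the table was filtered on low counts before deposit. Totals ran from 13200930 to 16324215 counts over the 12 libraries.

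Counts were tested with edgeR 4.0.16 (R 4.3.3) by its robust quasi-likelihood test after TMM scaling (factors 0.921 to 1.11). All 12 libraries of the 4 groups shared 1 estimate of spread (8 residual degrees of freedom), and isotype IRI was set against sham. Adjusted p-values are Benjamini-Hochberg over 13124 genes. Log2 CPM used a prior count of 2. The exact permutation tests on count shares are two-sided. Tables and promoter searches used Python 3.11.15.

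Genes named are the 10 largest called changes each way at a mean log2 CPM of at least 1 over all 12 libraries, the antibody-treated groups not compared here included, with groups that do not overlap, the first 2 members of each list, each list's largest called rise and fall, and the 10 genes with most reads in each group. Other list members, the promoters printed, the motif searches and the gene families were chosen after their values were seen. The comparison and the gene lists were chosen with earlier results of these data known. Symbols and promoters are from RefSeq (GRCm38.p6) and gene positions from GENCODE vM21 (GRCm38), which placed 12617 genes. Genes without a symbol (50) held 0.0811% of counts. The promoters printed are 2 genes for each of 4 motifs. A few genes that the rule names are not reported here. Alternatives were RLE, upper-quartile and library-total scaling, a filter of 10 counts in 3 samples, DESeq2 1.42.0, limma-voom (limma 3.58.1), a non-robust fit, a fit of the 6 samples alone, and leaving out each kidney.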

Additional observations from a re-analysis of the deposited data

How the results depend on the processing

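No paired analysis was possible because the kidneys are numbered 1 to 12 across the groups and share no number. Calls numbered 4207 higher and 4034 lower, and ranged from 4106 to 4323 higher and from 3937 to 4138 lower under RLE factors, upper-quartile factors, DESeq2, limma-voom, the 6 compared samples alone and the non-robust fit. Library totals gave 5586 and 3095, and the median log2 change of all genes was then 0.227. Leaving out 1 kidney gave 3638 to 4310 higher and 3570 to 4252 lower. The filter of 10 counts in 3 samples removed no gene. Among genes called both in the main analysis and in an alternative, 0 changed direction in each of the 14 alternatives. DESeq2 gave no adjusted p for 16 genes, which are in no count of lost calls. Of the 215 genes named by rule 196 were called, 21 lost the call and 10 gained it under some alternative, and the log2 change of 21 moved by over 1.5 times in fold when 1 kidney was left out. List medians that changed sign with library totals included lysosome (−0.15 to 0.05), hypoxia (−0.10 to 0.10), polyamine and creatine (−0.09 to 0.11) and podocyte (−0.09 to 0.11). The cause of these shifts beyond the scaling was not tested. With 3 kidneys a group and a table filtered before deposit, genes with few counts are the least certain.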

Other observations

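Gene families read by symbol, chosen after the values were seen, gave further counts. Of 9 tumour necrosis factor receptor genes (Tnfrsf) 6 rose, all by more than 2-fold, and 1 fell, with a median log2 change of 1.65. Of 21 serpins, inhibitors of serine proteases, 10 rose and 6 fell, with a median of 0.63. Of 36 cytochrome P450 genes 21 fell and 10 rose, with a median of −1.13. Of 34 ATP-binding cassette transporter genes 18 fell and 11 rose. Of 336 zinc finger (Zfp) genes 98 fell and 66 rose, with a median of −0.14. Over all genes 32.1% rose and 30.7% fell.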
